A study of Mus musculus with 12 samples.

Results

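The 45 genes described here encode proteins of the lysosome: acid hydrolases, their activators and partners in the lumen, proteins of the lysosomal membrane, and the transcription factors of the TFEB family. They were listed by name, with the proton pump left out and with earlier results of these data known, and all 45 were found among the 17005 genes of the deposited table. The lysosome is the acid compartment in which cells break down proteins, glycans, lipids and nucleic acids that arrive by endocytosis and autophagy. Most of its enzymes are made at the endoplasmic reticulum, marked with mannose 6-phosphate in the Golgi and carried to the lysosome by receptors for that mark, whereas membrane proteins such as LAMP1 line and protect the inside of its wall. TFEB, TFE3 and MITF are the factors best known for switching lysosomal genes on, and mTORC1, which is itself active on the lysosomal surface, is known to hold TFEB and TFE3 in the cytoplasm by phosphorylation.

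RNA was sequenced from 12 mice in 4 groups of 3. Normal livers came from wild-type C57BL/6 mice that had received neither plasmids nor drug. The other 9 libraries came from tumors of the liver driven by c-MYC and MCL1 with *Rictor* and *Tsc2* deleted, which were raised in mice with floxed *Rictor* and *Tsc2* by hydrodynamic injection, a rapid tail vein injection that drives plasmids for c-MYC, MCL1 and Cre into hepatocytes. Loss of *Tsc2* removes a brake on mTORC1, and loss of *Rictor* removes mTORC2, in the cells that took up Cre. The tumor-bearing mice were given vehicle, the mTOR kinase inhibitor MLN0128 at 1 mg/kg per day, or the rapamycin analog everolimus at 1 mg/kg per day. Dosing was by gavage on 6 days a week for 3 weeks from day 6 after injection, and mice were killed 3.7 weeks after injection. The study's text instead gives a course of 3 days for the sequenced tumors. The labels were followed here, and which course these tumors had is not settled. By their labels, vehicle-treated and drug-treated tumors shared the plasmids and both deletions, so the drug comparisons were made within 1 tumor model, and the comparison with normal liver differs in genotype, plasmids and gavage at once. Cells without Cre in the tumor tissue keep both genes. Neither the ages nor the sexes of the single mice were given in the labels.

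Values are FPKM, the authors' count of fragments per kilobase of transcript, scaled between libraries. Reads recovered from them numbered 17169983 to 25190861 per library. Log2 fold changes are differences between group means of log2(FPKM + 1), and they understate the change of genes at low levels. Calls of higher or lower rest on limma's moderated test and an adjusted p below 0.05, the adjustment (Benjamini-Hochberg) running over the 14395 genes that reached 0.5 FPKM in at least 3 libraries, and "limma adjusted p" below refers to this test. All 45 lysosomal genes were among those tested. *Mitf* was the weakest of them, reaching 0.5 FPKM in 7 of 12 libraries with 37 to 113 reads, and the other 44 did so in all 12. The labels do not tie the mice of a group to litters or days, so p-values measure the spread between these mice only.

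A few facts of the libraries bear on what follows. *Rictor* ranged from 1.65 to 2.57 FPKM in normal liver and from 1.05 to 1.5 under vehicle, and *Tsc2* from 4.50 to 5.32 and from 2.01 to 2.31, values that cover the whole genes and not only the floxed exons. The drug-treated tumors were above every vehicle library, with *Rictor* at 1.65 to 2.21 FPKM with MLN0128 and 1.58 to 1.93 with everolimus, and *Tsc2* at 2.81 to 3.96 and 2.78 to 2.87. *Tsc2* was called higher with MLN0128 than under vehicle (log2 fold change 0.46, limma adjusted p = 0.0115), and its difference with everolimus and those of *Rictor* with both drugs were not called. Whether the share of cells with the deletions differed between tumor groups was not tested, and it touches every drug comparison. The 9 hepatocyte markers measured were all lower in vehicle-treated tumors, and their summed FPKM fell from between 83019 and 101920 in normal liver to between 3945 and 6062. MLN0128 replicates 1 and 2 held *Xist* RNA, at 191 and 155 FPKM, and the other 10 libraries were at 0.0699 FPKM or below, a transcript known from cells with an inactive X chromosome. The labels give no sexes, and the fit without both libraries rests on 1 MLN0128 library, which is assumed to vary like the other groups. The scaling behind the authors' FPKM is not stated in the sources used here. Factors inferred from the recovered reads were 0.585 to 0.595 in normal liver and 1.10 to 1.37 in tumors. With plain library totals the median change over every gene tested, vehicle against normal liver, moved by 0.56 on the log2 scale, and changes in that comparison are to be read relative to this shift.

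In normal liver the lysosomal genes spanned 0.943 FPKM (*Mitf*) to 371 FPKM (*Lamp1*), and 36 of 45 lay above the median of all tested genes. Their own median was 19.7 FPKM in normal liver, 19.2 under vehicle, 13.2 under MLN0128 and 15.4 under everolimus, against 3.93, 4.34, 4.38 and 4.38 FPKM for all tested genes. The gene at the top changed with the group. It was *Lamp1* in normal liver, *Ctsl* (360.3 FPKM) under vehicle, *Psap* (120 FPKM) with MLN0128 and *Lamp1* (158.7 FPKM) with everolimus. Summed over the 45 genes, FPKM was 1986, 2123 and 1851 in the normal livers, 2318, 2219 and 2518 under vehicle, 1062, 1169 and 1083 under MLN0128 and 1276, 1385 and 1367 under everolimus. On the authors' scaling each drug group lay below every vehicle-treated tumor and every normal liver on this sum. The drugs were not tested against normal liver, and that order rests on the scaling between libraries, here and for single genes below. The sum is carried by the most abundant genes.

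Lysosomal transcripts changed in both directions between normal liver and vehicle-treated tumors on the authors' scaling. Of the 45 genes, 15 were higher and 14 lower, against 36.0% and 33.0% of all tested genes, so that the count of changed genes was close to the background in each direction. The median log2 fold change was 0.02 for the lysosomal genes and 0.06 for all tested genes, with a range from -2.496 (*Ctsh*) to 4.34 (*Cd63*). By limma's treat test, which asks for a change beyond 1.5-fold, 8 were higher and 5 lower, against 15.9% and 16.9% of all tested genes. These calls lean on the scaling between libraries. With plain library totals 31 were higher and 4 lower, against 61.3% and 15.2% of all tested genes, and the median log2 fold change was 0.75 for the lysosomal genes and 0.62 for all tested genes. With each library scaled to the same sum 32 were higher and 3 lower, against 66.1% and 11.7%, and the medians were 0.98 and 0.80. *Ctsh*, *Ctso* and *Lamp2* were called lower under both scalings, and *Scarb2* with plain totals. *Lamp1*, *Npc1*, *Ctsf*, *Lipa* and *Naglu* turned from lower to higher values under both, and *Ctsc*, *Smpd1* and *Mitf* with the same sum.

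Lysosomal transcripts were lower in the tumors given either drug. With MLN0128, 25 of the 45 genes were lower than under vehicle and 2 were higher, against 17.1% and 14.9% of all tested genes, and the median log2 fold change was -0.55 against -0.01 for all tested genes. With everolimus, 20 were lower and 0 higher, against 6.04% and 3.77%, and the median was -0.49 against 0.03. All 20 genes lower with everolimus were also lower with MLN0128, a combination found in 5.09% of all tested genes. Both drugs were set against the same 3 vehicle libraries, so the drugs' values are given side by side and their overlap is not independent evidence. Beyond 1.5-fold by treat, 7 genes were lower with MLN0128 (*Ctsb*, *Ctsd*, *Ctsl*, *Ctsz*, *Gla*, *Hexa* and *Neu1*) and 3 under everolimus (*Ctsl*, *Gla* and *Hexa*), against 1.65% and 0.570% of all tested genes. None was higher by treat with either drug, where 0.479% of all tested genes were with MLN0128 and 0.0347% with everolimus. With everolimus, 13 were left without vehicle replicate 3, against 2.78% of all tested genes, and 13 without everolimus replicate 1, against 2.77%. With MLN0128, 16 were lower when each library was scaled to the same sum, against 9.13% of all tested genes. When both libraries that hold *Xist* RNA were left out, which leaves 1 MLN0128 library, 16 were lower against 7.49% of all tested genes, and the median log2 fold change of the lysosomal genes was -0.52.

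**Figure D1:**
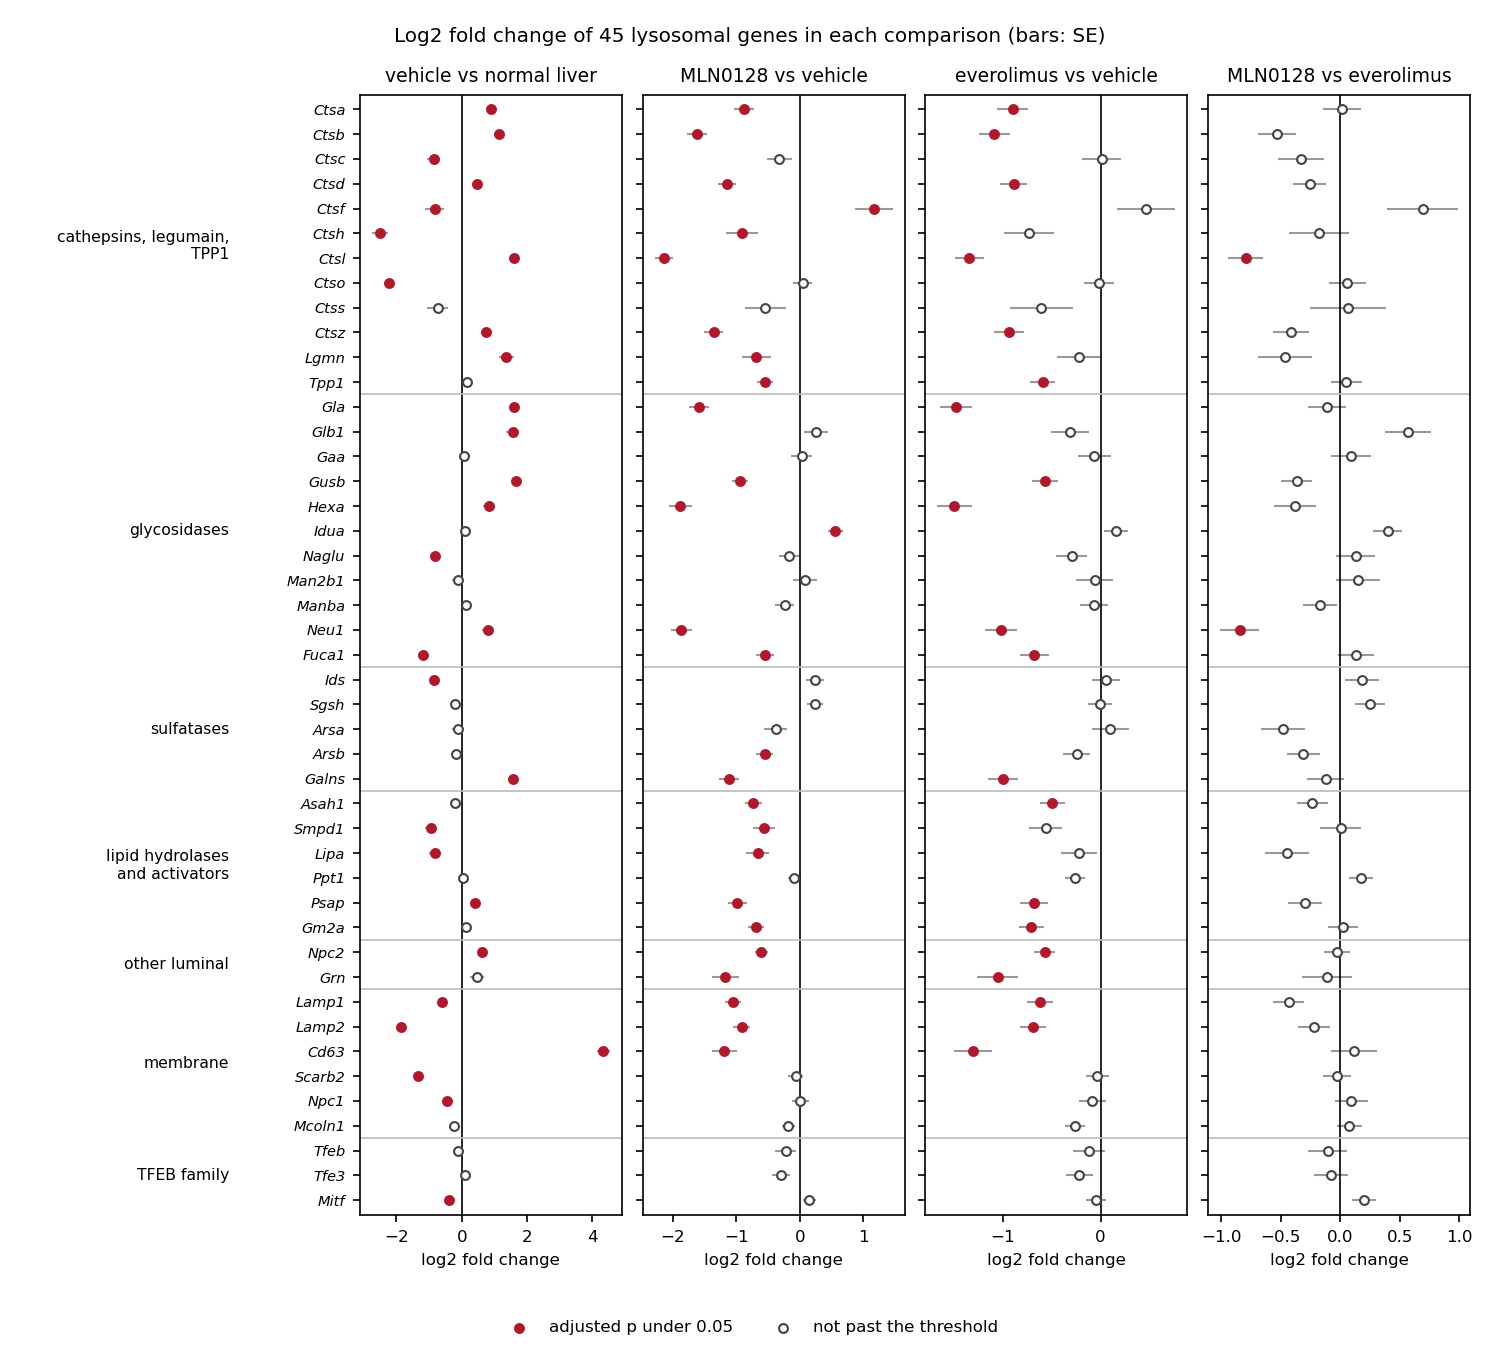
Log2 fold change of each of the 45 genes (rows, grouped by role) in 4 comparisons (panels), on the log2(FPKM + 1) scale, with the SE as a bar. Filled points passed an adjusted p of 0.05 by limma's moderated test. Points lie on both sides of 0 for vehicle against normal liver, and mostly at or below 0 for MLN0128 (25 lower, 2 higher) and everolimus (20 lower, 0 higher) against vehicle. The axes of the panels differ in range.

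The combination of both contrasts set the genes apart into classes. There were 13 genes that were higher in vehicle-treated tumors than in normal liver and lower again with both drugs (*Cd63*, *Ctsa*, *Ctsb*, *Ctsd*, *Ctsl*, *Ctsz*, *Galns*, *Gla*, *Gusb*, *Hexa*, *Neu1*, *Npc2* and *Psap*), a combination met by 3.03% of all tested genes. Both contrasts use the vehicle libraries, so the calls that make up this class are not independent. *Fuca1*, *Lamp1* and *Lamp2* were lower in tumors and lower still with both drugs, as were 0.875% of all tested genes. *Asah1*, *Gm2a*, *Grn* and *Tpp1* were lower with both drugs without a call against normal liver. The everolimus call of *Asah1* was lost with either other scaling, with the groups fitted alone, and without normal liver replicate 1 or 2, vehicle replicate 2 or 3, MLN0128 replicate 1 or everolimus replicate 1 or 3. That of *Tpp1* was lost with the same sum and without vehicle replicate 3 or everolimus replicate 1 or 3. The 5 genes that were lower with MLN0128 and not called with everolimus were *Arsb*, *Ctsh*, *Lgmn*, *Lipa* and *Smpd1*, a combination found in 12% of all tested genes and so near the background. The *Lgmn* ranges overlapped, at 50.5, 39.2 and 78.3 FPKM with MLN0128 and 77.5, 98.3 and 86.4 under vehicle. Its call was lost under the replicate block, with the groups fitted alone, with either other scaling, and without normal liver replicate 1, any 1 of the vehicle libraries, or MLN0128 replicate 1 or 2. No call in any comparison was made for 10 genes (*Arsa*, *Ctss*, *Gaa*, *Man2b1*, *Manba*, *Mcoln1*, *Ppt1*, *Sgsh*, *Tfe3* and *Tfeb*), where 20% of all tested genes had none.

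The cathepsins are the proteases of the lysosome, and with legumain and tripeptidyl peptidase 1 they made up 12 of the genes. Against normal liver 6 were higher and 4 lower in vehicle-treated tumors, and against vehicle MLN0128 gave 8 lower and 1 higher, everolimus 6 lower. For these and the role groups below, 36.0% of all tested genes were higher and 33.0% lower in vehicle-treated tumors. The shares of all tested genes were 14.9% higher and 17.1% lower with MLN0128, and 3.77% and 6.04% with everolimus. *Ctsl* (chr13:64359337-64370890 of GRCm38), the gene of the endopeptidase cathepsin L, moved most among those that fell with the drugs. It measured 105, 130 and 122 FPKM in normal liver, 346, 358 and 377 under vehicle, 69.6, 86.2 and 89.1 under MLN0128 and 130, 132 and 165 under everolimus. The groups did not overlap in any of the 4 comparisons, and on the authors' scaling the MLN0128-treated tumors lay below normal liver. Its log2 fold change was 1.60 in vehicle-treated tumors (SE 0.146, limma adjusted p = 1.91e-06), -2.14 under MLN0128 (SE 0.146, limma adjusted p = 1.03e-05) and -1.34 under everolimus (SE 0.146, limma adjusted p = 0.000340).

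*Ctsb*, which encodes the abundant cysteine protease cathepsin B, measured 85.2, 109 and 83.8 FPKM in normal liver, 219, 170 and 231 under vehicle, 60.8, 71.8 and 66.2 under MLN0128 and 89.9, 88.4 and 111 under everolimus. All 3 vehicle libraries lay above all others. The log2 fold changes were 1.15 against normal liver (SE 0.159, limma adjusted p = 5.28e-05), -1.62 under MLN0128 (limma adjusted p = 9.05e-05) and -1.09 under everolimus (limma adjusted p = 0.00222). *Ctsd*, the gene of the aspartic protease cathepsin D, measured 112, 120 and 104 FPKM in normal liver, 148, 142 and 172 under vehicle, 67.5, 76.4 and 63.1 under MLN0128 and 78.8, 96.0 and 74.1 under everolimus. Here both drug groups fell below normal liver on the authors' scaling. The rise in vehicle-treated tumors was small (log2 fold change 0.45, limma adjusted p = 0.0107) and was not called without vehicle replicate 3. With the drugs the log2 fold changes were -1.15 for MLN0128 (SE 0.136, limma adjusted p = 0.000251) and -0.89 for everolimus (limma adjusted p = 0.00294).

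Some cathepsins went the other way in tumors. *Ctsh*, the gene of an aminopeptidase of this family, fell from 113, 108 and 114 FPKM in normal liver to 20.2, 15.4 and 21.9 under vehicle (log2 fold change -2.496, SE 0.253, limma adjusted p = 4.36e-06). It was at 8.29, 14.7 and 7.21 under MLN0128, where it was called lower (-0.91, limma adjusted p = 0.0178), and at 9.26, 16.0 and 8.96 under everolimus, where the ranges overlapped and it was not called. The call with MLN0128 was lost without vehicle replicate 1 or 3 and without MLN0128 replicate 1 or 3. *Ctsf*, the gene of the cysteine protease cathepsin F, was the only cathepsin called higher with a drug. It measured 21.6, 32.1 and 24.4 FPKM in normal liver and 13.5, 14.3 and 14.4 under vehicle, a fall that was not called without normal liver replicate 2 or without any 1 of the vehicle libraries. With MLN0128 it stood at 38.8, 47.6 and 18.8 FPKM (log2 fold change 1.16, SE 0.297, limma adjusted p = 0.0120), and with everolimus at 27.0, 19.2 and 15.0 (0.47, limma adjusted p = 0.343). The higher values with MLN0128 were those of the libraries that hold *Xist* RNA, and the call was lost without MLN0128 replicate 1. With MLN0128 replicate 3 as the 1 library of its group, the log2 fold change was 0.39 (limma adjusted p = 0.399).

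The glycosidases trim sugar chains from glycoproteins, glycolipids and glycosaminoglycans, and loss of 1 of them is the cause of many lysosomal storage diseases. Of the 11, 5 were higher and 2 lower in vehicle-treated tumors, 5 lower and 1 higher with MLN0128 and 5 lower with everolimus. *Hexa* (chr9:59539540-59565109 of GRCm38), the alpha subunit gene of the hexosaminidase that cleaves GM2 ganglioside, measured 27.0, 36.8 and 22.2 FPKM in normal liver and 49.4, 43.2 and 61.5 under vehicle. It dropped to 12.4, 12.3 and 14.8 FPKM with MLN0128 and to 17.4, 17.3 and 17.5 under everolimus. On the authors' scaling every drug-treated tumor lay below every normal liver. The log2 fold changes were 0.83 against normal liver (SE 0.175, limma adjusted p = 0.00118), -1.88 under MLN0128 (limma adjusted p = 6.70e-05) and -1.49 under everolimus (limma adjusted p = 0.000538).

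*Neu1* (chr17:34931253-34935953 of GRCm38), the sialidase gene whose enzyme works in a complex with cathepsin A and beta-galactosidase, measured 20.5, 22.3 and 16.2 FPKM in normal liver, 39.1, 31.1 and 33.6 under vehicle, 7.97, 9.80 and 8.60 under MLN0128 and 16.4, 13.4 and 20.5 under everolimus. Its log2 fold change was -1.86 under MLN0128 (SE 0.165, limma adjusted p = 5.41e-05) and -1.02 under everolimus (SE 0.165, limma adjusted p = 0.00397). *Gla*, the X-linked gene of alpha-galactosidase A, measured 4.57, 3.25 and 4.49 FPKM in normal liver and 12.5, 16.9 and 13.8 under vehicle. With MLN0128 it was at 4.30, 3.20 and 4.92 FPKM and with everolimus at 4.17, 4.92 and 4.40, values that overlapped those of normal liver. The *Gla* log2 fold changes were 1.59 (limma adjusted p = 4.16e-06), -1.59 (limma adjusted p = 9.82e-05) and -1.48 (limma adjusted p = 0.000340) in the same order of comparisons, each with an SE of 0.161. *Gusb*, the beta-glucuronidase gene, measured 9.07, 10.6 and 8.81 FPKM in normal liver, 33.3, 29.1 and 34.3 under vehicle, 16.8, 13.3 and 19.3 under MLN0128 and 21.2, 20.9 and 21.8 under everolimus. It was called lower with both drugs and stayed above normal liver in all 6 drug-treated tumors. The call with everolimus was lost without vehicle replicate 1 or 3 and without everolimus replicate 1 or 3.

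*Ctsa*, the protective protein gene of the complex that holds the *Neu1* sialidase, was likewise called lower with both drugs (-0.88 under MLN0128 and -0.90 under everolimus on the log2 scale). *Glb1*, the beta-galactosidase gene, rose in vehicle-treated tumors (log2 fold change 1.56, limma adjusted p = 2.21e-05) and was not called with MLN0128, where it was at 26.5, 29.6 and 16.0 FPKM against 19.9, 17.2 and 21.1 under vehicle, or with everolimus, where it was at 16.1, 15.1 and 14.9. *Fuca1*, the alpha-fucosidase gene, went from 31.6, 33.8 and 29.3 FPKM in normal liver to 12.9, 11.9 and 14.9 under vehicle. It was at 7.92, 9.09 and 9.16 FPKM with MLN0128 and 7.34, 10.2 and 6.44 under everolimus, and it was called lower in all 3 comparisons. The *Fuca1* calls were lost with plain library totals against normal liver and for MLN0128, without vehicle replicate 3 for both drugs, without MLN0128 replicate 1, and without vehicle replicate 1 or everolimus replicate 1 or 3 for everolimus. *Idua*, the iduronidase gene, was higher with MLN0128 at 2.69, 3.16 and 2.79 FPKM against 1.75, 1.92 and 1.28 under vehicle (log2 fold change 0.56, limma adjusted p = 0.00479). With the 1 MLN0128 library without *Xist* RNA, the log2 fold change was 0.52 (limma adjusted p = 0.0783).

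Sulfatases remove sulfate groups from glycosaminoglycans and glycolipids. Among these 5 genes, 1 was higher and 1 lower in vehicle-treated tumors, 2 were lower with MLN0128 and 1 was lower with everolimus. *Galns*, the galactosamine-6-sulfatase gene, measured 2.48, 3.29 and 1.95 FPKM in normal liver, 10.3, 8.61 and 9.43 under vehicle, 3.69, 3.19 and 4.65 under MLN0128 and 3.84, 4.72 and 4.15 under everolimus. It was higher in tumors (log2 fold change 1.56, limma adjusted p = 3.76e-06) and lower with MLN0128 (-1.12, limma adjusted p = 0.000526) and everolimus (-0.997, limma adjusted p = 0.00329). *Ids*, the X-linked iduronate sulfatase gene, measured 3.69, 3.18 and 3.40 FPKM in normal liver and 1.57, 1.13 and 1.62 under vehicle (log2 fold change -0.86, limma adjusted p = 0.000225), a call lost with plain library totals. With the drugs it stayed between 1.25 and 2.37 FPKM and was not called. *Arsb*, the arylsulfatase B gene, was lower with MLN0128 at a log2 fold change of -0.55.

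The lipid hydrolases and the small proteins that present lipids to them fell with MLN0128 in 5 of 6 cases and with everolimus in 3, while vehicle-treated tumors had 1 higher and 2 lower than normal liver. *Psap*, which encodes the precursor of the saposins, measured 179, 211 and 150 FPKM in normal liver, 214, 234 and 267 under vehicle, 113, 128 and 119 under MLN0128 and 150, 143 and 150 under everolimus. Its log2 fold change was -0.98 under MLN0128 (SE 0.144, limma adjusted p = 0.000687) and -0.68 under everolimus (limma adjusted p = 0.0139). The rise in vehicle-treated tumors (0.41, limma adjusted p = 0.0238) was not called without vehicle replicate 3, or without normal liver replicate 1 or 3, and the call with everolimus was lost without vehicle replicate 3 or everolimus replicate 1. *Gm2a*, the GM2 activator gene, measured 32.9, 32.1 and 30.8 FPKM in normal liver, 37.4, 31.2 and 36.9 under vehicle, 24.0, 23.1 and 17.7 under MLN0128 and 21.6, 19.9 and 21.8 under everolimus. It was not called against normal liver and fell with both drugs, by 0.69 under MLN0128 and by 0.71 under everolimus on the log2 scale. *Smpd1*, the acid sphingomyelinase gene, went from 23.2, 21.4 and 16.1 FPKM in normal liver to 10.3, 8.96 and 10.3 under vehicle, and *Lipa*, the acid lipase gene, from 77.9, 83.9 and 66.4 to 42.6, 36.7 and 50. Neither was called lower against normal liver with plain library totals. *Smpd1* and *Lipa* were called lower with MLN0128 and not with everolimus, a difference between the drugs that the direct comparison did not call (limma adjusted p = 0.992 for *Smpd1* and 0.145 for *Lipa*). The *Smpd1* call with MLN0128 was lost without vehicle replicate 1 or 3 and without MLN0128 replicate 1 or 3, and that of *Lipa* without vehicle replicate 3 or MLN0128 replicate 1. Among other luminal proteins, *Npc2*, which carries cholesterol, measured 17.2, 17.9 and 16.7 FPKM in normal liver, 29.2, 23.6 and 29.0 under vehicle, 19.1, 17.1 and 16.5 under MLN0128 and 17.4, 17.5 and 18.9 under everolimus. It was called lower with both drugs, as was *Grn*, the progranulin gene.

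The membrane proteins split in 2 ways. *Cd63* (chr10:128900989-128912822 of GRCm38), the gene of a tetraspanin of late endosomes, lysosomes and exosomes, measured 3.02, 5.27 and 2.73 FPKM in normal liver and 95.2, 88.6 and 89.4 under vehicle. This was the largest rise among the 45 genes, at a log2 fold change of 4.34 (SE 0.196, limma adjusted p = 1.16e-08), and the ratio of the mean FPKM was 24.8. With MLN0128 it was at 38.5, 34.7 and 45.5 FPKM (log2 fold change -1.19, limma adjusted p = 0.00123) and with everolimus at 35.8, 30.1 and 44.0 (-1.31, limma adjusted p = 0.00258). All drug-treated tumors lay between normal liver and vehicle. With the 1 MLN0128 library without *Xist* RNA, the log2 fold change was -0.98 (limma adjusted p = 0.0509).

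*Lamp1* and *Lamp2*, the genes of the main glycoproteins of the lysosomal wall, were lower in vehicle-treated tumors and lower again with both drugs. *Lamp1* (chr8:13159161-13175338 of GRCm38) went from 389, 363 and 361 FPKM in normal liver to 243, 227 and 262 under vehicle, 110, 132 and 110 under MLN0128 and 148, 176 and 152 under everolimus. The groups did not overlap. Its log2 fold change was -0.60 against normal liver (limma adjusted p = 0.00139), which reversed to 0.33 with plain library totals, and it was -1.05 under MLN0128 (limma adjusted p = 0.000300) and -0.62 under everolimus (limma adjusted p = 0.0133), a call lost without vehicle replicate 3 or everolimus replicate 1 or 3. *Lamp2*, which is X-linked, fell from 160, 138 and 169 FPKM to 42.7, 38.6 and 45.2 under vehicle (log2 fold change -1.86, limma adjusted p = 3.19e-07), and stood at 19.5, 25.4 and 21.2 under MLN0128 (-0.91, limma adjusted p = 0.000660) and 23.3, 28.8 and 25.1 under everolimus (-0.69, limma adjusted p = 0.00858).

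The other membrane genes were not called with either drug. *Npc1*, whose product passes cholesterol out of the lysosome, measured 13.7, 17.4 and 14.2 FPKM in normal liver, 9.81, 10.7 and 11.9 under vehicle, 10.2, 11.9 and 10.5 under MLN0128 and 8.42, 11.9 and 10.3 under everolimus. The tumor groups overlapped throughout, and the lower level in tumors (log2 fold change -0.44, limma adjusted p = 0.0131) was not called without normal liver replicate 2 or vehicle replicate 1. *Mcoln1*, the gene of the calcium channel TRPML1, measured 5.12, 5.28 and 5.20 FPKM in normal liver, 4.51, 4.18 and 4.09 under vehicle, 3.65, 3.18 and 4.12 under MLN0128 and 3.62, 3.18 and 3.39 under everolimus, and was called nowhere. *Scarb2*, the gene of LIMP2, the transport receptor of glucocerebrosidase, fell from 55.7, 53.3 and 50.2 FPKM to 17.3, 22.0 and 21.9 under vehicle and had log2 fold changes of -0.06 under MLN0128 and -0.03 under everolimus.

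**Figure D2:**
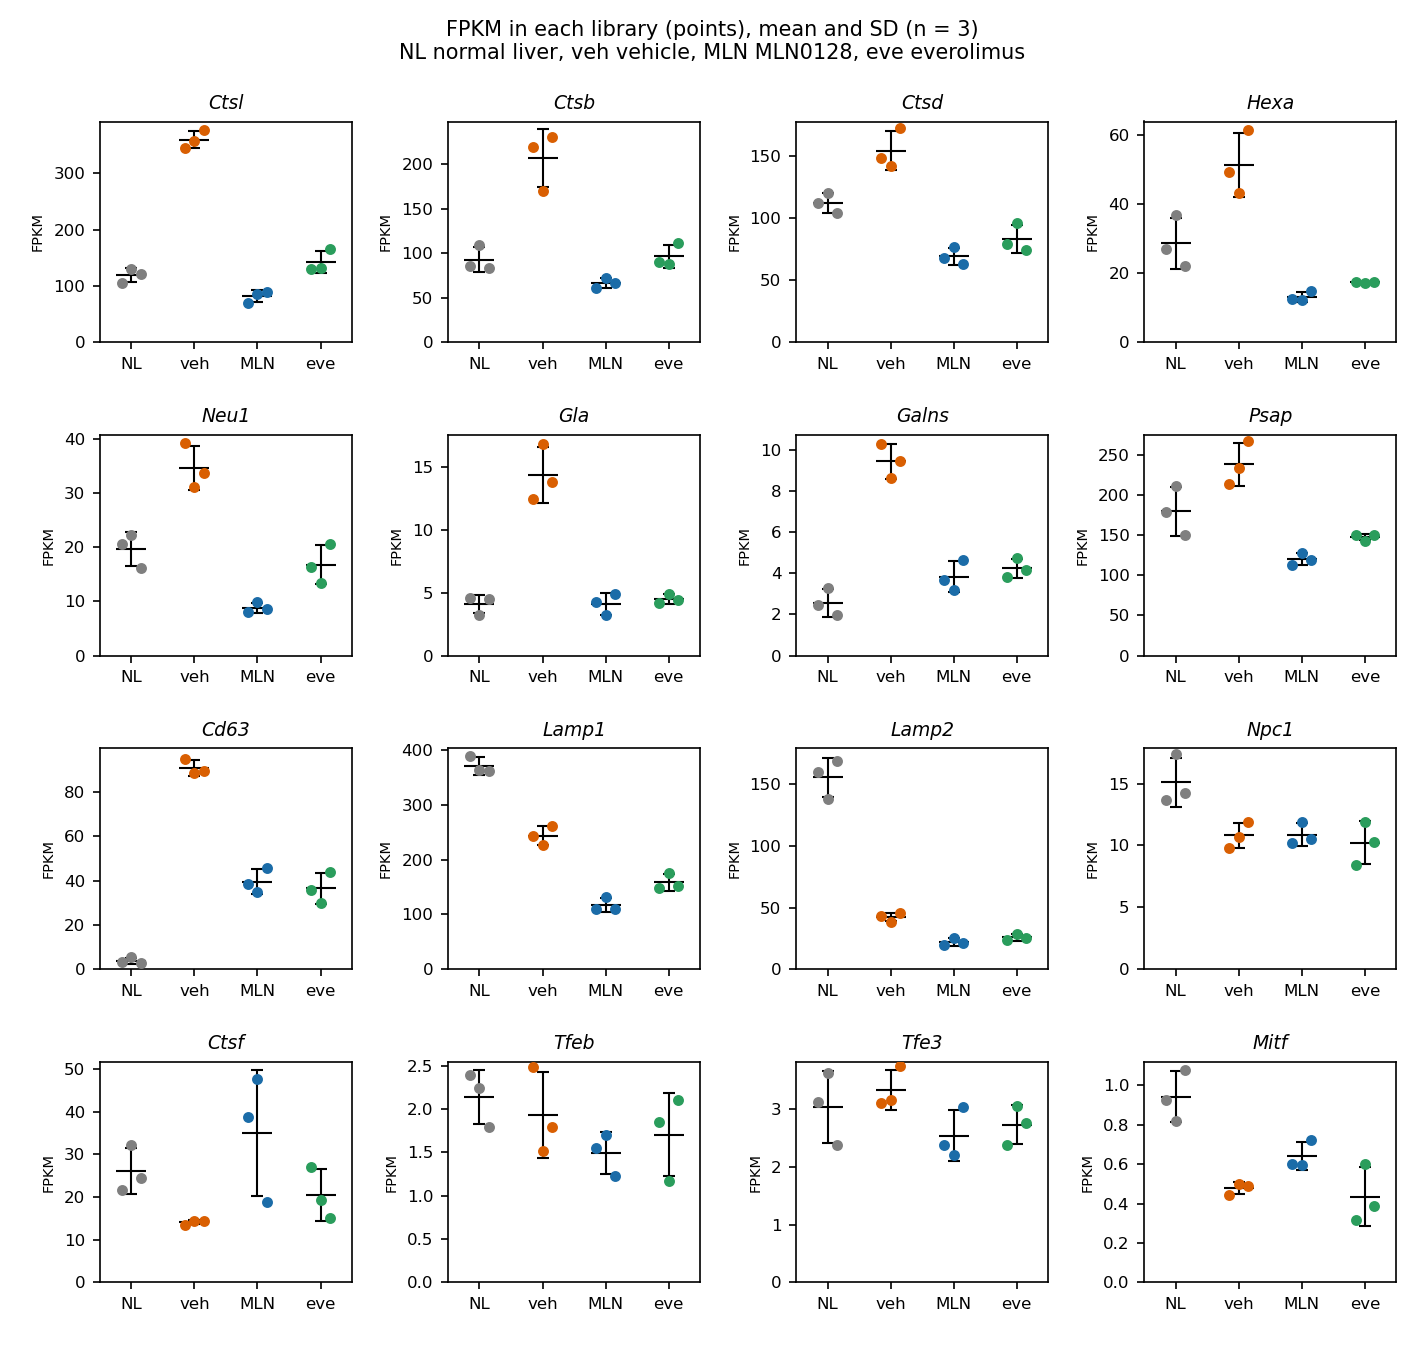
FPKM (linear axes from 0) of 16 of the genes in each of the 12 libraries (points), with the mean and SD of each group (n = 3). *Ctsl* shows the pattern of a rise in vehicle-treated tumors (346 to 377 FPKM) and a fall with MLN0128 (69.6 to 89.1) and everolimus (130 to 165). *Lamp2* shows a stepwise fall, and *Npc1* and *Tfeb* overlapping tumor groups. *Tfe3* was at 3.10 to 3.73 FPKM under vehicle, above the values with MLN0128 (2.20 to 3.03) and everolimus (2.38 to 3.04), and was not called.

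The transcription factors were present at low levels and were not called with either drug. *Tfeb* measured 2.39, 2.24 and 1.79 FPKM in normal liver, 2.48, 1.52 and 1.79 under vehicle, 1.55, 1.70 and 1.23 under MLN0128 and 1.85, 1.17 and 2.10 under everolimus, and its groups overlapped in all comparisons. *Tfe3* measured 3.11, 3.61 and 2.37 FPKM in normal liver, 3.10, 3.15 and 3.73 under vehicle, 2.38, 2.20 and 3.03 under MLN0128 and 2.38, 3.04 and 2.76 under everolimus, with log2 fold changes of -0.29 under MLN0128 (limma adjusted p = 0.134) and -0.22 under everolimus (limma adjusted p = 0.361). *Mitf* measured 0.928, 0.820 and 1.08 FPKM in normal liver and 0.444, 0.498 and 0.492 under vehicle (log2 fold change -0.39, limma adjusted p = 0.00437). This call was lost with plain library totals. With MLN0128 *Mitf* was at 0.602, 0.598 and 0.722 FPKM and with everolimus at 0.316, 0.602 and 0.389. mTORC1 is known to act on these factors through their phosphorylation and place in the cell, which mRNA levels do not measure.

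The 4 promoters shown next are those of the genes that hold the site known for TFEB-family factors and were called in the most comparisons. RefSeq promoters of GRCm38.p6, from 250 bases before to 50 after each start, were found for 40 of the 45 genes. The E-box CACGTG was present in 13 of them (32.5%), against 11.8% of the 10217 tested genes with a promoter and 8.09% of all 27025 genes with one. The longer TCACGTG, searched on both strands and holding the E-box, was present in 11 (27.5%), against 7.01% and 4.29%. Counted by promoter, with 48 promoters for these genes, the shares were 27.1% and 22.9% against 7.15% and 3.77% of all 32851. These shares are a description, since a match is not a bound site. The bases before the start are printed 5′ to 3′ on the strand of the gene, and capitals mark each TCACGTG or its reverse complement CACGTGA, which run together as TCACGTGA where both are present. The windows are chrX:134601006-134601255 (minus strand) for *Gla*, chr7:142387828-142388077 (minus strand) for *Ctsd*, chr8:13158911-13159160 (plus strand) for *Lamp1* and chr2:164833523-164833772 (plus strand) for *Ctsa*, the first of 2 listed for that gene.
Gla: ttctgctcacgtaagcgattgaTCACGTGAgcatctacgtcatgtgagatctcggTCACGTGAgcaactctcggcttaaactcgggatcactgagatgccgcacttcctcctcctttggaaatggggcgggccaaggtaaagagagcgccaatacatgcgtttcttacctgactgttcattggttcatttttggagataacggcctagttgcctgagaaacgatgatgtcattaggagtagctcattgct
Ctsd: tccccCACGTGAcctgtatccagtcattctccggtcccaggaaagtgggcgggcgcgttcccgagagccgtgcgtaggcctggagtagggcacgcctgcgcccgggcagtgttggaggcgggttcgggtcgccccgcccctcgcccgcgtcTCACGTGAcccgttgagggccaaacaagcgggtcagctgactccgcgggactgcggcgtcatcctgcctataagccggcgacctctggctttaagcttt
Lamp1: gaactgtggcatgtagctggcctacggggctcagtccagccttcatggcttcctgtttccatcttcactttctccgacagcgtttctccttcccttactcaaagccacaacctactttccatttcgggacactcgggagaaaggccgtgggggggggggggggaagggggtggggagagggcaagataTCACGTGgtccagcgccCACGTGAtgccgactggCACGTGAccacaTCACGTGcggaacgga
Ctsa: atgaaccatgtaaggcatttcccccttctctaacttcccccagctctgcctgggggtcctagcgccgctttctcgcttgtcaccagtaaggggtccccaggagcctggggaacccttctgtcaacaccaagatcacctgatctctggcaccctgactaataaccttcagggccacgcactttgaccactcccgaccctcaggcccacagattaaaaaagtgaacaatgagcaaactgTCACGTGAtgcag
*Lamp1* held 4 such places, the nearest 15 bases before the start, and *Gla* and *Ctsd* held 2 each, the nearest 194 and 98 bases before it. *Ctsa* held 1 before the start, at a distance of 12 bases, and 1 more beyond it that is not printed. The promoters of *Ctsl*, *Hexa* and *Neu1*, which fell most with MLN0128, did not hold the TCACGTG letters in this window, though that of *Ctsl* held the E-box. Of the 11 genes with TCACGTG, 5 were lower with MLN0128 and 4 under everolimus, and of the 29 without it 16 and 13 were. The median log2 fold change with MLN0128 was -0.38 with the motif and -0.55 without, and with everolimus it was -0.30 and -0.56. Whether the motif bears on the fall was not tested. *Ctsb*, *Ctsh*, *Galns*, *Asah1* and *Npc1* had no listed promoter and are left out of these counts. Of them, *Ctsb*, *Galns* and *Asah1* were called lower with both drugs, *Ctsh* with MLN0128 only and *Npc1* with neither.

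MLN0128 and everolimus differed in size at few of the genes. In the direct comparison 2 of the 45 genes were lower with MLN0128 and 0 higher, against 5.54% and 3.99% of all tested genes, and by treat 0 in each direction, against 0.0347% and 0.00695%. The genes were *Ctsl*, with a log2 difference of -0.79 (SE 0.146, limma adjusted p = 0.0118), and *Neu1*, with -0.84 (SE 0.165, limma adjusted p = 0.0137). For both, all 3 MLN0128 libraries lay below all 3 everolimus libraries. Both calls were lost without MLN0128 replicate 1, without everolimus replicate 3, with 1 MLN0128 library left after those that hold *Xist* RNA (-0.66 for *Ctsl* and -0.87 for *Neu1*) and when the 2 groups were fitted alone. *Ctsb* (-0.53, limma adjusted p = 0.0583) and *Lamp1* (-0.43, limma adjusted p = 0.0579) came near the threshold in the same direction, and *Idua* (0.40, limma adjusted p = 0.0568) in the opposite one. The median log2 difference was -0.08 for the 45 genes and -0.03 for all tested genes. For *Gla*, at -0.11 with an SE of 0.161, the design does not show that the drugs acted alike.

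**Figure D3:**
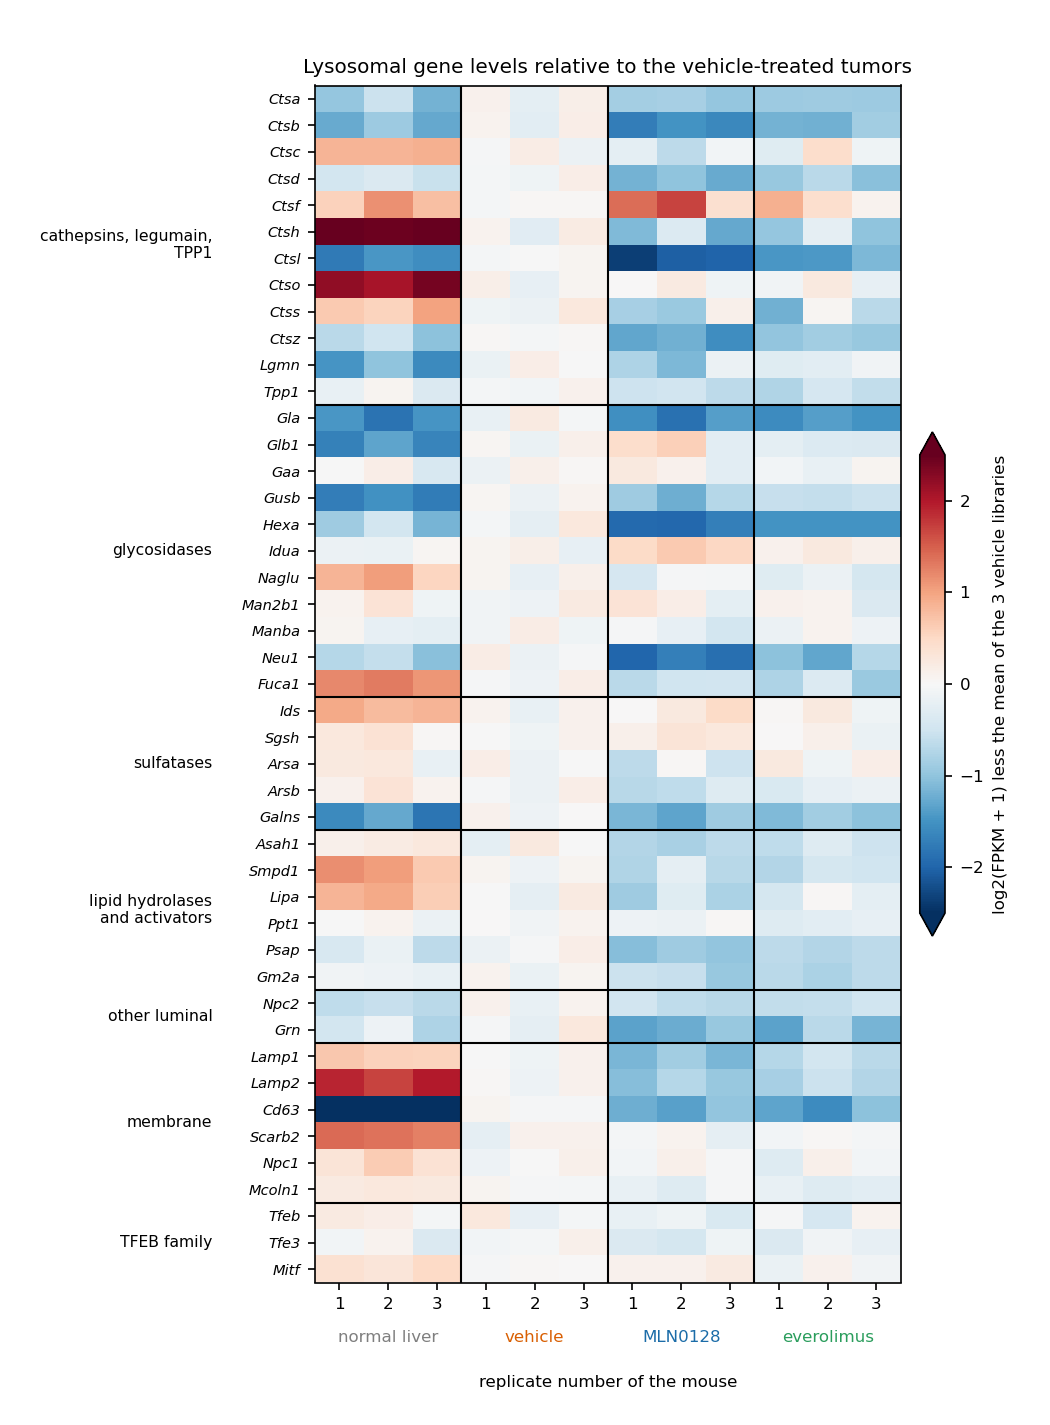
The level of each of the 45 genes (rows, grouped by role) in each of the 12 libraries (columns), as log2(FPKM + 1) less the mean of the 3 vehicle libraries. Red is above and blue below the vehicle mean, and values beyond 2.5 in either direction take the end color. Blue fills most rows in the 6 drug-treated tumors, and *Ctsf* is red in MLN0128 replicates 1 and 2.

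Other genes of the pathway, listed by role and not by their change, moved alike in part. Of 55 tested, 18 were higher and 21 lower in vehicle-treated tumors, 2 higher and 27 lower with MLN0128, and 1 higher and 13 lower with everolimus. Their median log2 fold change was -0.34 under MLN0128 and -0.27 under everolimus. The shares of all tested genes, here and for the sorting, surface and marker genes below, were 36.0% higher and 33.0% lower in vehicle-treated tumors. They were 14.9% and 17.1% with MLN0128 and 3.77% and 6.04% with everolimus. Among 16 other hydrolases and enzymes that serve them, 7 were lower with MLN0128 and 3 under everolimus. *Sumf1*, whose product activates all sulfatases, was at 8.26, 8.23 and 10.5 FPKM under vehicle, 3.32, 3.40 and 3.62 under MLN0128 and 4.80, 6.43 and 6.74 under everolimus, and it was called lower with MLN0128 than with everolimus, a call lost without MLN0128 replicate 1 or everolimus replicate 3. Among 16 other membrane proteins and transporters, 8 fell and 1 rose with MLN0128, and 6 fell with everolimus. *Clcn7* and *Ostm1*, the genes of the lysosomal chloride transporter and its beta subunit, were among those lower with both, at log2 fold changes of -0.91 and -0.83 under MLN0128 and -0.59 and -0.74 under everolimus. *Tmem175*, the gene of a lysosomal potassium and proton channel, was higher with MLN0128 at 1.94, 1.99 and 2.39 FPKM against 0.984, 0.8 and 1.21 under vehicle.

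Genes that sort the enzymes were counted apart. Of 9 genes for the mannose 6-phosphate mark, its receptors and their adaptors, 6 were higher and 2 lower in vehicle-treated tumors, 3 were lower with MLN0128, and 1 was higher and 0 lower with everolimus. *Gnptab*, which encodes 2 subunits of the enzyme that starts the mark, measured 2.08, 1.90 and 1.97 FPKM in normal liver and 14.4, 12.6 and 17.6 under vehicle, and it was not called with either drug. *Gga2*, an adaptor gene, rose from 2.12, 1.90 and 1.82 FPKM to 30.1, 22.9 and 27.9 under vehicle and fell to 12.8, 9.84 and 11 under MLN0128. *Sort1*, the sortilin gene, was at 7.95, 7.39 and 8.84 FPKM under vehicle, 1.08, 2.31 and 2.89 under MLN0128 (log2 fold change -1.60, limma adjusted p = 0.00115) and 2.76, 4.22 and 6.11 under everolimus (-0.80, limma adjusted p = 0.0710).

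At the lysosomal surface, Rag GTPases, Ragulator and folliculin control mTORC1 and TFEB. The list of 14 genes for this control also held *Tfec* and *Gpnmb*, which are not part of that machinery. Of the 14, 7 were higher and 5 lower in vehicle-treated tumors, 9 fell and 1 rose with MLN0128, and 4 fell with everolimus. *Rragd*, the RagD gene, measured 0.663, 0.403 and 0.574 FPKM in normal liver, 25.8, 24.1 and 30.2 under vehicle, 14.5, 14.6 and 14.9 under MLN0128 and 25.9, 20.6 and 24.9 under everolimus. It was higher in vehicle-treated tumors (log2 fold change 4.16, limma adjusted p = 5.11e-10), and it was lower with MLN0128 than with everolimus (-0.66, limma adjusted p = 0.0119), a call lost without MLN0128 replicate 1 or everolimus replicate 3. *Gpnmb*, which encodes a glycoprotein of melanosomes and macrophage lysosomes, went from at most 0.0294 FPKM in normal liver to 4.45, 7.05 and 8.21 under vehicle and was lower with both drugs. *Rragb*, the RagB gene, was higher with MLN0128 at 5.36, 3.35 and 5.87 FPKM against 0.971, 0.924 and 1.39 under vehicle.

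Bulk RNA holds all cells of the tissue, and fewer cells of a type cannot be told apart from less RNA per cell. Macrophages are rich in lysosomes, so 14 macrophage and Kupffer cell markers were set beside the lysosomal genes. Against normal liver, 2 of these were higher and 10 lower in vehicle-treated tumors, 5 were lower with MLN0128 and 1 under everolimus, and their median log2 fold changes were -1.14, -0.73 and -0.03. Their summed FPKM was 422 to 537 in normal liver, 192 to 269 under vehicle, 87.8 to 184 under MLN0128 and 124 to 298 under everolimus. None of the 14 was at 0 in any library. The highest marker sums among treated tumors were in MLN0128 replicate 3 (184) and everolimus replicate 2 (298). *Cd68*, which is itself a lysosomal membrane protein gene, was at 24.6, 28.2 and 36.8 FPKM under vehicle, 11, 5.37 and 12.4 under MLN0128 and 6.82, 12.8 and 9.32 under everolimus. The part of macrophage content in the lysosomal values was not tested.

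*Ctss*, *Ctsc* and *Grn*, chosen after their values were seen as genes that macrophages also express strongly, are given beside those sums. Other lysosomal genes did not all peak in the libraries with the highest marker sums. *Ctsz* and *Ctsd* were lowest of their drug group in MLN0128 replicate 3 (101 and 63.1 FPKM) and highest in everolimus replicate 2 (162 and 96.0). *Ctsb* peaked in MLN0128 replicate 2 (71.8 FPKM) and everolimus replicate 3 (111 FPKM). *Ctss* was at 13.8, 12.8 and 27.6 FPKM with MLN0128 and 10.4, 26.2 and 15.5 under everolimus, so that its highest values were in the same 2 libraries as the marker sums. It was not called with either drug. *Ctsc* was at 6.92, 8.23 and 6.28 FPKM under vehicle, 5.88, 4.12 and 6.77 under MLN0128 and 5.57, 10 and 6.53 under everolimus, again highest in these libraries within each drug group and not called. *Grn* was at 54.9, 47.9 and 67.2 FPKM under vehicle, 21.7, 23.3 and 28.8 under MLN0128 (log2 fold change -1.17, limma adjusted p = 0.00192) and 21.7, 35.0 and 24.5 under everolimus (-1.05, limma adjusted p = 0.0103), and its highest treated values were also in these libraries. Its call with everolimus was lost without vehicle replicate 3 or everolimus replicate 1, and with the 1 MLN0128 library without *Xist* RNA its log2 fold change was -0.94 (limma adjusted p = 0.0717). For endothelial markers the sums were 57.9 to 69.2 in normal liver, 15.3 to 22.4 under vehicle, 12.5 to 16.5 under MLN0128 and 12.8 to 22.0 under everolimus, and 0 of 8 were called with either drug. Of 4 cholangiocyte markers tested, 3 were higher in vehicle-treated tumors and 3 were lower with each drug. *Krt19*, the keratin 19 gene, was at 29.6, 9.49 and 44.0 FPKM under vehicle and at 0.944 FPKM or below in all 6 drug-treated tumors. The cholangiocyte sum was 36.8 to 92.5 FPKM under vehicle, 10.3 to 28.1 under MLN0128 and 17.2 to 61.8 under everolimus, and its part in the lysosomal values was not tested. Of 8 stellate cell and fibroblast markers, 5 were higher and 3 lower in vehicle-treated tumors, 1 was higher with MLN0128 and 0 were called with everolimus. Of 6 proliferation markers, 6 were higher in vehicle-treated tumors, 1 was lower with MLN0128 and 0 were called with everolimus. None of the 3 neutrophil markers and 1 lymphocyte marker tested was called in any comparison.

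**Figure D4:**
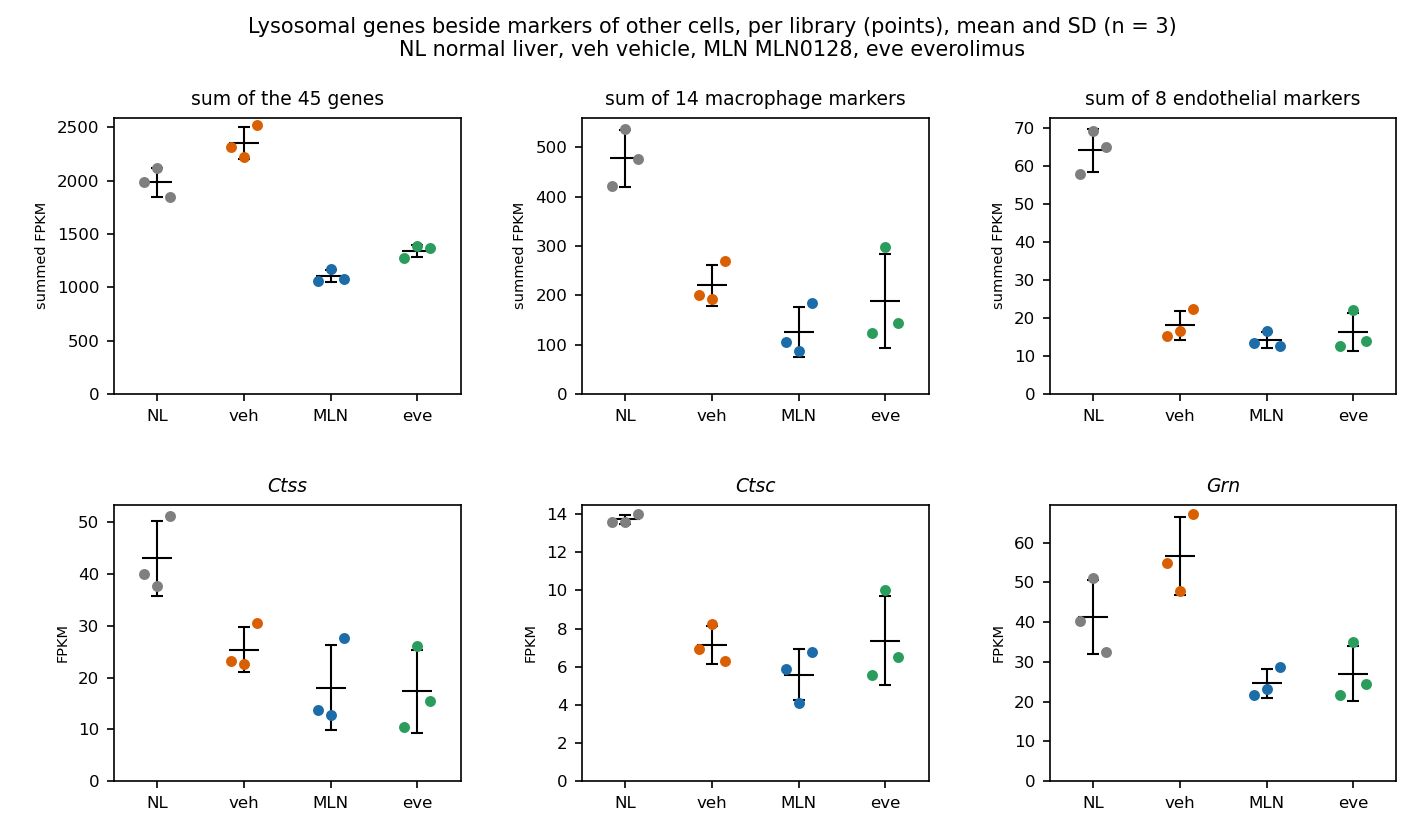
Summed FPKM of the 45 lysosomal genes, 14 macrophage markers and 8 endothelial markers, and FPKM of *Ctss*, *Ctsc* and *Grn*, in each of the 12 libraries (points), with the mean and SD of each group (n = 3). The lysosomal sum lies between 1062 and 1385 in all 6 drug-treated tumors, whereas the macrophage sum ranges from 87.8 to 298 among them.

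Of the 45 genes, 15 share exonic bases with another annotated gene, and for 8 this exceeds 10% of their exons (*Arsa*, *Arsb*, *Ctsa*, *Ctsb*, *Ctsd*, *Ctsl*, *Hexa* and *Sgsh*). Whether reads were counted by strand is not given in the sources used here, so reads of such genes and their neighbors may not have been told apart. The X-linked genes were *Gla*, *Ids*, *Lamp2* and *Tfe3*. In MLN0128 replicate 3, without *Xist* RNA, *Gla*, *Lamp2* and *Tfe3* were at 4.92, 21.2 and 3.03 FPKM, below all vehicle-treated tumors. *Ids* was at 2.37 FPKM there, above all of them.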

How the data were processed

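RNA was sequenced from 12 mice, 3 in each of 4 groups taken from the labels. The authors counted reads per gene and deposited FPKM values with their own scaling between libraries. Quality control used FastQC 0.11.7 and the build was GRCm38, per the labels' processing notes. The aligner and the strand setting of the counting are not given in the sources used here. The table held 17007 entries, of which 2 repeated symbols were left out, and 0 columns were unmatched to a sample. With exon lengths of GENCODE for 16897 symbols, 98.2% to 98.8% of values under 20 reads came out whole within 0.1. The depth and the scaling factor of each library were inferred in this way.

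The 14395 genes that reached 0.5 FPKM in 3 or more libraries were tested on log2(FPKM + 1) with limma 3.58.1 in R 4.3.3, in 1 model of all 12 libraries with 8 residual degrees of freedom and a trended prior. Vehicle was compared with normal liver, each drug with vehicle, and MLN0128 with everolimus. Calls used Benjamini-Hochberg adjusted p under 0.05, with limma's treat against a fold of 1.5 beside them. The study's own test was a count test in edgeR, which was not run, since the deposited values are FPKM. A limma fit of the recovered reads (voom) was among the alternatives. It called 15 genes higher and 15 lower against normal liver, 2 and 25 with MLN0128, 0 and 21 with everolimus, and 0 and 3 between the drugs. The fit was tested on simulated data. Alternatives were 21 in number, 12 of them leaving out 1 library. Tables and figures were made with Python 3.11.15, pandas 2.3.3 and matplotlib 3.10.9.

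The 45 genes, the pathway lists and the marker lists were chosen with earlier results of these data known. Of the listed pathway and marker genes, 7 are not used here and 8 more did not reach the filter. Values in every library were given for *Tfeb*, *Tfe3*, *Mitf*, *Lamp1*, *Lamp2*, *Ctsd*, *Ctsb*, *Npc1* and *Mcoln1* and, in each other role group and comparison, for the called gene with the largest absolute log2 fold change in each direction. For *Idua*, *Ids*, *Smpd1* and *Grn*, which this rule reaches, only part of the libraries were printed one by one. Other genes were named in counts of 5 or fewer or as ends of a range, and up to 2 called genes were named per pathway or marker list and comparison. *Gla*, *Ctsa*, *Glb1*, *Arsb*, *Lipa*, *Scarb2*, *Lgmn*, *Ctss*, *Ctsc* and *Ctsz*, and the longer lists of called genes, were named outside that rule, after their values were seen. Among the pathway and marker genes, any that the rule does not reach were likewise chosen after their values were seen.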

Additional observations from a re-analysis of the deposited data

Results flagged for a closer look

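The effects of MLN0128 and everolimus against the same vehicle libraries differed at 2 of the 45 genes by the direct test. Both were lower with MLN0128, a share of 4.44%, against 5.54% of all tested genes lower and 3.99% higher. The count is thus not above the background. For *Ctsl* the log2 fold change with MLN0128 was lower than with everolimus by -0.79 (limma adjusted p = 0.0118), and over all alternatives the difference ranged from -0.86 to -0.55. For *Neu1* it was lower by -0.84 (limma adjusted p = 0.0137), with a range from -0.99 to -0.63. The 3 MLN0128 libraries lay below the 3 everolimus libraries for both genes. Neither call held without MLN0128 replicate 1 or without everolimus replicate 3.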

How the results depend on the processing

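The 180 named results cover 25 of the 45 lysosomal genes and other genes of the pathway, in 4 comparisons. Of these results, 100 were called. Called or not, 85 kept their side of the threshold under all alternatives, and no called value among them reversed. Of the 100 called results, 41 fell short of the threshold in the same direction under some alternative other than treat. Beyond 1.5-fold (treat), 8 of the 45 genes were higher and 5 lower for vehicle against normal liver, 0 were higher and 7 lower with MLN0128, 3 lower with everolimus, and 0 lower with MLN0128 than with everolimus. With each library scaled to the same sum, 32 were higher and 3 lower against normal liver, against 66.1% and 11.7% of all tested genes. At that setting 16 were lower with MLN0128, against 9.13%. There, 3 were higher and 1 lower with MLN0128 than with everolimus, against 10% and 1.49%. With plain library totals 31 were higher and 4 lower against normal liver, against 61.3% and 15.2%. With those totals 2 were higher with MLN0128 than with everolimus, against 8.3%. Without both MLN0128 libraries that hold *Xist* RNA, which leaves 1 library in that group, 0 were higher and 16 lower with MLN0128 than with vehicle, and 0 lower than with everolimus. With only the 2 groups compared, 0 were lower with MLN0128 than with everolimus. Leaving out 1 library gave 13 to 16 higher and 12 to 16 lower against normal liver, 1 to 3 higher and 20 to 25 lower with MLN0128, 0 higher and 13 to 22 lower with everolimus, and 0 to 2 higher and 0 to 4 lower with MLN0128 than with everolimus. Against normal liver, the log2 fold change reversed with the same sum and with plain totals to 0.65 and 0.48 for *Tfeb*, 0.59 and 0.33 for *Lamp1*, 0.66 and 0.42 for *Npc1*, 0.73 and 0.51 for *Mcoln1*, 0.31 and 0.062 for *Ctsf*, 0.43 and 0.18 for *Sumf1*, 0.57 and 0.33 for *Clcn7*, and 0.72 and 0.51 for *Ostm1*. It reversed with the same sum only to 0.082 for *Mitf*, 0.16 for *Smpd1*, 0.16 for *Dnase2a* and 0.71 for *Glmp*. The replicate numbers are shared by the groups, but deviations of same-numbered libraries correlated from -0.2891 to 0.148, and 1 of 18 pairs was over 0.1. The fit with the replicate number as a block called 15 higher and 15 lower against normal liver, 2 and 24 with MLN0128, 0 and 20 with everolimus, and 0 and 2 between the drugs. The block lost the MLN0128 call of *Lgmn*. The causes were not tested. Depth limits *Mitf*, with 37 to 113 reads per library, more than *Ctsl*, with 7357 to 57073.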
